A study of Mus musculus with 20 samples.

Results

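Levels of 9 genes that are seldom discussed in fat were followed through the first weeks of high-fat feeding in mouse epididymal fat, the fat pad beside the testis. The genes were Krt79, D430019H16Rik, Slc6a13, Rhbdf1, Hr, Paqr9, Csrp2, Stk26 and Cobl, 9 of 39179 gene IDs in a table of raw read counts. They were chosen because each lay on the same side of chow on all 4 high-fat days. Their differences from chow are therefore given as a description, with no test, and only differences between high-fat days were tested for them. All 9 were among the 15254 genes that passed the filter on low counts.

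RNA came from male C57BL6/J mice, an inbred laboratory strain, that had eaten a high-fat diet (HFD) through day 2, 4, 6 or 14, or were controls on normal chow (day 0). There were 5 groups of 4 libraries, named here by group and by the replicate number in the labels. All chow libraries are of day 0, so diet and time on the study cannot be told apart in any comparison with chow. No genetic change or drug is recorded for any group, and the labels give neither the age of the mice nor the composition of the diet. The RNA is of whole fat, so fewer cells of a type and less RNA per cell cannot be told apart.

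The fat pad is a mixture of large lipid-filled adipocytes, their progenitors, vessels, immune cells and the mesothelium, the thin epithelial layer that covers the pad. Krt79 encodes a type II keratin, a building block of the intermediate filaments of epithelial cells. Slc6a13 encodes a plasma membrane transporter for GABA and taurine, and Rhbdf1 encodes iRhom1, a protease-dead rhomboid that helps the sheddase ADAM17 mature and reach the cell surface. Paqr9 belongs to the progestin and adipoQ receptor family, which also holds the adiponectin receptors. Hr encodes Hairless, a corepressor of nuclear receptors that binds the thyroid hormone, vitamin D and ROR receptors. Csrp2 encodes a LIM domain protein that binds the actin cytoskeleton, and Stk26 encodes MST4, a kinase of the GCKIII group that works with the STRIPAK phosphatase complex. Cobl encodes cordon-bleu, which starts new actin filaments. D430019H16Rik is a protein-coding gene known by its clone name, and no role is given to it here.

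The genome stretch just before the annotated start is shown for 4 of the genes, those with a listed promoter and enough bases outside annotated transcripts. Of these, Krt79, D430019H16Rik and Slc6a13 were higher in all high-fat libraries and Cobl was lower in all of them. The sequences are from RefSeq on GRCm38.p6, written 5′ to 3′ on the gene's own strand. Promoters in that table were found for 5 of the 9 genes, with 3 starts for Slc6a13 and 2 for Cobl, and the stretches shown belong to the start listed first. Capitals mark a GC box (GGGCGG on either strand) or an E-box (CACGTG). The stretches lie at chr15:101940325-101940574 (minus strand) for Krt79, chr12:105453606-105453855 (plus) for D430019H16Rik, chr6:121300038-121300226 (plus) for Slc6a13 and chr11:12465023-12465210 (minus) for Cobl.
Krt79: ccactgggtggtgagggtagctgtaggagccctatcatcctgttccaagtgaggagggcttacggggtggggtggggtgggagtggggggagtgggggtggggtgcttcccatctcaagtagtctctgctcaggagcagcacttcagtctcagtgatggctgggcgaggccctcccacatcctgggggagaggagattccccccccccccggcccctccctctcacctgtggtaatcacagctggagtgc
D430019H16Rik: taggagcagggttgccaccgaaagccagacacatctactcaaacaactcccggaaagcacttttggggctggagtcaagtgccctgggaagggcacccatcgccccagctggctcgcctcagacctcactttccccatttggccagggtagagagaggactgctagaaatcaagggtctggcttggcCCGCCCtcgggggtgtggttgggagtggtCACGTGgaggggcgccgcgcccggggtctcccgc
Slc6a13: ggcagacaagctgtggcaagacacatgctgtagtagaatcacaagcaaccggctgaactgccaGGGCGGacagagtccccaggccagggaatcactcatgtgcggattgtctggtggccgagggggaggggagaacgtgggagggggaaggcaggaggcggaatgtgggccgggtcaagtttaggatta
Cobl: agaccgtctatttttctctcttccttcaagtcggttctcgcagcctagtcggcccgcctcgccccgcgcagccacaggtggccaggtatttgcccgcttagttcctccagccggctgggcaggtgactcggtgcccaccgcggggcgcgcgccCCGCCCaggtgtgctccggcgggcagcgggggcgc
In all, 9 motifs were searched on both strands in the 250 bases before each start, each as fixed letters. The TATA box (TATAAA), the E-box, the GC box and the CCAAT box (CCAAT) occurred in 12.3%, 6.04%, 33.0% and 33.8% of 32536 promoters of the same length. A sterol response element (TCACNCCAC), a C/EBP site (TTGCNNAA) and a glucocorticoid receptor motif (AGAACA) occurred in 1.04%, 9.57% and 16.03% of them. Direct repeats of AGGTCA with 1 base (AGGTCANAGGTCA) or 4 bases between them (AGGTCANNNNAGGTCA) occurred in 0.034% and 0.015%. The GC box was found in the first windows of D430019H16Rik, Slc6a13, Stk26 and Cobl, and none of the 9 motifs was found in that of Krt79. A further GC box of Slc6a13 and another of Cobl lie nearer to the start than the stretches shown. D430019H16Rik has its E-box 34 bases before the start. Stk26, whose window is not shown, also held the glucocorticoid receptor motif, and a second start of Slc6a13 a CCAAT box. The first windows of the 5 genes held 60.8% to 75.2% G or C, with Cobl highest, against a median of 52.4% (quartiles 45.2% and 61.2%) over all promoters. Those of the further starts held 51.6% and 49.6% for Slc6a13 and 43.2% for Cobl. These matches describe letters and were not tested for binding.

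Total counts per library ranged from 1916829 to 38832429. Day 2 libraries held 1916829 to 26798901 counts, day 4 libraries 4578703 to 16274913, day 6 libraries 11418864 to 32363044, day 14 libraries 6724707 to 24581101 and chow libraries 8279454 to 38832429. Levels are in CPM, counts scaled to a common library total after adjustment by TMM factors. Of the libraries that stood apart, day 2 replicate 1 was the shallowest. Chow replicate 4 held 203 CPM of summed markers of epididymal and other ductal epithelium, while no other chow library passed 3.27 CPM. Summed markers of dividing cells were 65.0 CPM in day 4 replicate 1, while the other day 4 libraries held 532 to 659 CPM, and they were 381 CPM in day 6 replicate 4, against 49.5 to 109.6 CPM in the other day 6 libraries. Each change from chow of the chosen genes kept its direction in all 20 fits that left out 1 library. It also kept it without these 4 libraries together, a set chosen after seeing the data. These omissions could not test the direction, because the genes were chosen for it. For each gene all high-fat libraries lay on the same side of all chow libraries, so leaving some out could hardly reverse it. Adipocyte markers were abundant, with sums of 34426 to 77042 CPM in high-fat libraries and 39426 to 67545 CPM in chow libraries. Of the other marker lists, sums for fibroblasts and adipocyte progenitors were 2402 to 4923 CPM in high-fat libraries and 3306 to 4116 CPM in chow libraries. Sums for endothelium were 1210 to 2539 CPM in high-fat libraries and 1138 to 1456 CPM in chow libraries, and those for macrophages 823 to 1748 and 1395 to 1663 CPM. Markers of T and NK cells, B cells and skeletal muscle summed to at most 27.5, 37.8 and 71.1 CPM in high-fat libraries and 23.7, 18.96 and 31.2 CPM in chow libraries.

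None of the 9 genes had a high-fat library on the chow side of any chow library. The first 6 in the list above were higher in all 16 high-fat libraries than in all 4 chow libraries, which held for 161 of 15254 genes (1.06%), and the last 3 were lower in all 16, which held for 140 genes (0.918%). Since the choice of the genes used these contrasts, the counts are printed without a reading. A fitted change above 0 on all 4 days was found for 28.3% of all genes and one below 0 for 32.8%. Against the mean of the chow libraries, the mean of the high-fat libraries was 5.07 times as high for Paqr9, 3.69 for Krt79, 3.67 for Hr, 2.78 for D430019H16Rik, 1.96 for Slc6a13 and 1.52 for Rhbdf1. It was 0.641 times the chow mean for Csrp2, 0.327 for Stk26 and 0.288 for Cobl. The distance between the nearest libraries of the 2 diets was much smaller. It was 1.80-fold for Krt79, 1.48-fold for Stk26, 1.45-fold for D430019H16Rik and 1.42-fold for Paqr9. It was 1.26-fold for Hr, 1.196-fold for Csrp2, 1.18-fold for Slc6a13, 1.13-fold for Rhbdf1 and 1.09-fold for Cobl.

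**Figure D1:**
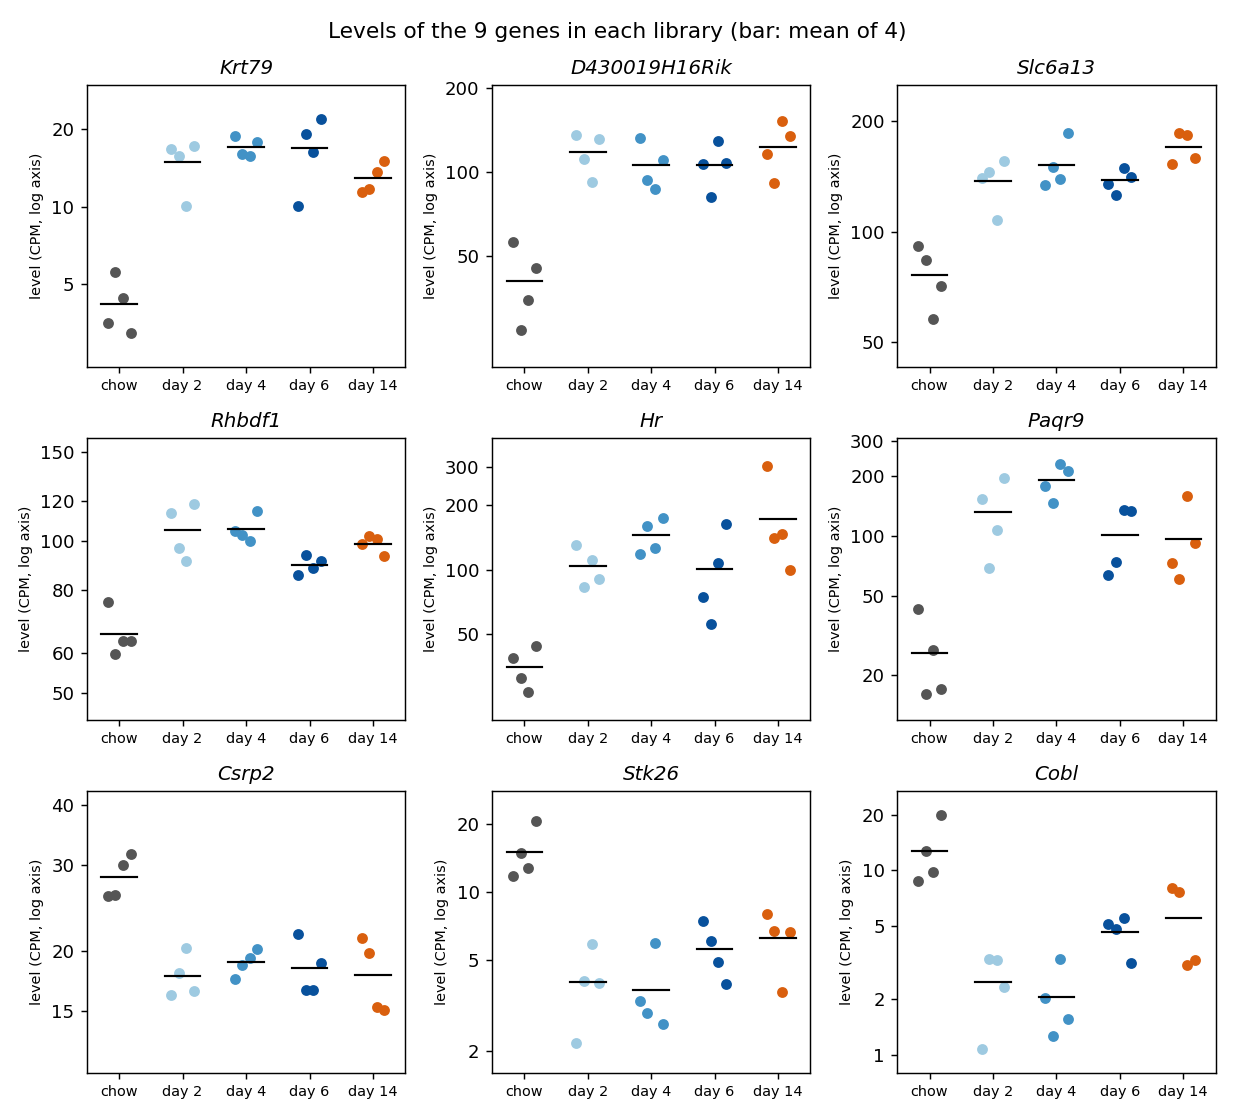
Level of each of the 9 genes in each library, in CPM on a log axis, by group from chow through days 2, 4, 6 and 14 of high-fat feeding; points are libraries and bars are means of 4. In the upper 6 panels every high-fat point lies above every chow point and in the bottom 3 panels every one lies under it, with the smallest gap for Cobl (1.09-fold) and the largest for Krt79 (1.80-fold).

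Levels of different genes are set beside each other per kilobase of annotated exon (CPM per kb, lengths from GENCODE on GRCm38). In high-fat libraries Slc6a13 was the most abundant on every day, at 47.3, 52.4, 47.4 and 58.5 CPM per kb on days 2, 4, 6 and 14, against 26.2 CPM per kb on chow. Cobl was the least abundant, at 0.307, 0.252, 0.569 and 0.677 CPM per kb on those days. On chow the lowest was Krt79 at 0.883 CPM per kb, below Cobl at 1.57. Krt79 thus lay above Stk26 and Cobl on each high-fat day and below them on chow.

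Krt79 (ENSMUSG00000061397, chromosome 15) was a rare transcript on chow. It had 16.7, 15.8, 10.1 and 17.2 CPM on day 2, 18.8, 15.97, 15.8 and 17.8 on day 4, 10.04, 19.2, 16.3 and 22.03 on day 6 and 11.5, 11.8, 13.7 and 15.1 on day 14, against 3.55, 5.58, 4.43 and 3.24 CPM on chow. All high-fat libraries were above 10 CPM and no chow library passed 5.58 CPM. The means were 14.96 ± 3.28, 17.1 ± 1.45, 16.9 ± 5.13 and 13 ± 1.70 CPM on days 2, 4, 6 and 14, and 4.20 ± 1.05 CPM on chow (SD, n = 4 each). In the same order of days the fitted log2 change from chow was 1.83 ± 0.23, 2.06 ± 0.23, 2.04 ± 0.22 and 1.65 ± 0.23 (SE). The 10 markers of skin epithelium, another source of keratin transcripts, summed to 4.86 to 16.4 CPM in high-fat libraries, against 9.01 to 14.2 CPM in chow libraries. Krt15 and Dsg3 of that list were at 0 in all 20 libraries, and Krt5 was at 0 in all 16 high-fat libraries. Krt14 of the list was detected, at up to 0.468 CPM on day 2, 9.10 CPM (replicate 3) on day 4, 5.21 CPM on day 6 and 4.70 CPM on day 14, against 3.21 to 6.63 CPM on chow. It was below Krt79 in each high-fat library and in chow replicate 3 (3.21 against 4.43 CPM). In chow replicates 1, 2 and 4 it was above Krt79, at 3.72, 6.63 and 3.93 CPM against 3.55, 5.58 and 3.24 CPM. Since Krt79 was chosen for its shift from chow, this order is a description, and the part of skin was not tested.

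Slc6a13 (ENSMUSG00000030108, chromosome 6) had 139.7, 146, 108 and 156 CPM on day 2 and 134, 149.8, 139 and 186 on day 4. It had 135, 126, 149 and 141 CPM on day 6 and 153, 185, 183 and 158 on day 14, against 91.6, 83.7, 57.9 and 71.1 CPM on chow. Day 14 held the highest group mean, and all 4 of its libraries were above all 4 of day 6. The means were 137 ± 20.8, 152 ± 23.4, 138 ± 9.72 and 169.8 ± 16.7 CPM in order of day, and 76.1 ± 14.8 CPM on chow (SD, n = 4 each). Fitted log2 changes from chow were 0.85 ± 0.14, 1.00 ± 0.14, 0.86 ± 0.14 and 1.16 ± 0.14 (SE). The day 2 and day 6 values of this transporter were nearly equal.

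Rhbdf1 (ENSMUSG00000020282, chromosome 11) had the smallest spread between replicates of the 9 as fitted by edgeR (biological coefficient of variation 0.0944), though not in CPM in every group. It had 114, 97.0, 91.2 and 119 CPM on day 2, 105, 103, 99.9 and 115 on day 4, 85.4, 93.9, 88.5 and 91.1 on day 6 and 98.6, 102, 101 and 93.4 on day 14, against 75.6, 59.6, 63.2 and 63.2 CPM on chow. Chow replicate 1 was the highest chow library and lay 1.13-fold under the lowest high-fat library, day 6 replicate 1. Means were 105 ± 13.1, 105 ± 6.44, 89.7 ± 3.65 and 98.8 ± 3.87 CPM by day, and 65.4 ± 6.998 CPM on chow (SD, n = 4 each), with fitted log2 changes of 0.68 ± 0.09, 0.69 ± 0.09, 0.46 ± 0.09 and 0.59 ± 0.09 (SE). Scaling by library size alone, which moved the median of all genes on day 6 by -0.14, gave 0.32 for day 6.

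Hr (ENSMUSG00000022096, chromosome 14) spread most on the later days. It had 130.03, 83.1, 111 and 90.7 CPM on day 2, 119, 159, 126 and 173 on day 4, 75.1, 56.0, 107 and 162 on day 6 and 303, 141, 146 and 99.3 on day 14, against 38.97, 31.4, 27.1 and 44.4 CPM on chow. On day 6 the libraries spanned 56.0 to 162 CPM, and on day 14 replicate 1 stood at 303 CPM while the other 3 lay between 99.3 and 146 CPM. The means were 104 ± 21.2, 144 ± 26.3, 100.2 ± 46.5 and 172 ± 89.4 CPM in order of day, and 35.5 ± 7.72 CPM on chow (SD, n = 4 each). Fitted log2 changes from chow were 1.53 ± 0.33, 2.02 ± 0.33, 1.5 ± 0.32 and 2.28 ± 0.33 (SE). Without day 14 replicate 1 the last of these was 1.87.

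Paqr9 (ENSMUSG00000064225, chromosome 9) had the largest ratio of high-fat to chow means. It had 153, 68.6, 107 and 195 CPM on day 2, 178, 145, 229 and 211 on day 4, 63.5, 74.1, 135 and 132 on day 6 and 73.3, 60.9, 158 and 92.2 on day 14, against 42.7, 16.04, 26.7 and 16.9 CPM on chow. Day 4 was the highest day, with all 4 libraries at 145 CPM or more, and chow replicate 1 was more than 1.5 times as high as any other chow library. Means were 131 ± 54.9, 191 ± 37.1, 101 ± 37.7 and 96.2 ± 43.4 CPM by day, and 25.6 ± 12.4 CPM on chow (SD, n = 4 each). The fitted log2 change was 2.33 ± 0.39, 2.89 ± 0.39, 1.97 ± 0.38 and 1.90 ± 0.38 (SE) on those days. The reference table lists Blnc1, also the name of a noncoding RNA of brown fat, among the other names of Paqr9. In GENCODE no exon of another gene overlaps the exons of any of the 9. Near Paqr9 on the same strand lies the long noncoding RNA gene Gm32281, which shares 0 bp of exon with it and is not among the counted genes. On the opposite strand, counted genes lie at or near Cobl (Gm12002, antisense), Rhbdf1 (Snrnp25) and Slc6a13 (Gm24855). Their totals over all libraries were 2599, 1747 and 38 counts, and they share 0 bp of exon with these genes. The strand setting of the counting is not given in the sources used here, so reads of transcripts from both strands cannot be told apart.

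D430019H16Rik (ENSMUSG00000094910, chromosome 12) had 136, 112, 92.0 and 132 CPM on day 2 and 132, 93.5, 87.4 and 111 on day 4. It had 107, 81.2, 129.8 and 108 CPM on day 6 and 116, 91.2, 153 and 134 on day 14, against 56.0, 27.1, 34.8 and 45.4 CPM on chow. The 4 high-fat days overlapped each other throughout, and chow replicate 1 came nearest to them. Means were 118 ± 20.3, 106 ± 20.1, 107 ± 19.9 and 124 ± 26.2 CPM by day, and 40.8 ± 12.6 CPM on chow (SD, n = 4 each). Its fitted log2 changes were 1.51 ± 0.21, 1.38 ± 0.21, 1.38 ± 0.21 and 1.59 ± 0.21 (SE).

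Of the 3 lower genes, Csrp2 (ENSMUSG00000020186, chromosome 10) had the smallest and the most even difference. It had 16.2, 17.98, 20.2 and 16.5 CPM on day 2, 17.5, 18.7, 19.3 and 20.1 on day 4, 21.7, 16.6, 16.6 and 18.8 on day 6 and 21.2, 19.8, 15.3 and 15.1 on day 14, against 25.9, 26.04, 30.1 and 31.6 CPM on chow. The high-fat groups all overlapped each other between 15.1 and 21.7 CPM. Markers of smooth muscle and pericytes, where Csrp2 is known to be active, summed to 835, 767, 703 and 673 CPM on day 2, 623, 1245, 1383 and 1193 on day 4, 766, 801, 822 and 1182 on day 6 and 902, 755, 753 and 690 on day 14, against 781, 753, 748 and 819 CPM on chow. Day 4 replicates 2 to 4 and day 6 replicate 4 were thus well above every chow library in these markers. Their Csrp2 was below every chow library, as in every high-fat library, and the gene was chosen by its shifts from chow. The part of these cells in the level of Csrp2 was not tested. The means were 17.7 ± 1.85, 18.9 ± 1.12, 18.4 ± 2.42 and 17.8 ± 3.13 CPM by day, and 28.4 ± 2.88 CPM on chow (SD, n = 4 each), and the fitted log2 changes were -0.66 ± 0.12, -0.59 ± 0.12, -0.63 ± 0.12 and -0.66 ± 0.12 (SE).

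Stk26 (ENSMUSG00000031112, chromosome X) had 2.16, 4.08, 5.91 and 3.97 CPM on day 2, 3.31, 2.94, 5.99 and 2.62 on day 4, 7.47, 6.09, 4.93 and 3.95 on day 6 and 8, 6.76, 3.65 and 6.69 on day 14, against 11.8, 14.9, 12.8 and 20.6 CPM on chow. The level of this kinase was lowest on days 2 and 4 and lay between those and chow on days 6 and 14. The means were 4.03 ± 1.53, 3.71 ± 1.54, 5.61 ± 1.52 and 6.27 ± 1.85 CPM by day, and 15.03 ± 3.93 CPM on chow (SD, n = 4 each). Fitted log2 changes were -1.77 ± 0.29, -2.08 ± 0.30, -1.42 ± 0.28 and -1.24 ± 0.28 (SE). The value of day 2 replicate 1 rests on 4 reads, with an exact 95% Poisson interval of 0.588 to 5.53 CPM that covers counting error only.

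Cobl (ENSMUSG00000020173, chromosome 11) had the same order of days by mean level as Stk26. It had 1.08, 3.31, 3.26 and 2.34 CPM on day 2, 2.03, 1.26, 3.33 and 1.57 on day 4, 5.10, 4.82, 5.49 and 3.14 on day 6 and 8.08, 7.64, 3.08 and 3.26 on day 14, against 8.78, 12.7, 9.77 and 19.9 CPM on chow. The day 14 libraries were split into replicates 1 and 2 near 8 CPM and replicates 3 and 4 near 3 CPM, and the higher pair came within 1.09-fold of the lowest chow library. Means were 2.50 ± 1.05, 2.05 ± 0.911, 4.64 ± 1.04 and 5.51 ± 2.71 CPM by day, and 12.8 ± 5.02 CPM on chow (SD, n = 4 each), with fitted log2 changes of -2.19 ± 0.36, -2.69 ± 0.38, -1.47 ± 0.33 and -1.17 ± 0.33 (SE). Day 2 replicate 1 held 2 reads of Cobl (exact 95% Poisson interval 0.131 to 3.898 CPM) and day 4 replicate 2 held 6 reads (0.463 to 2.74 CPM). Chow replicate 4, the library with ductal epithelial markers, was the highest in Cobl and in Stk26. Without it the log2 changes were -1.87, -2.40, -1.18 and -0.85 for Cobl and -1.57, -1.9, -1.23 and -1.05 for Stk26, in order of day.

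Markers of the mesothelium were lower in high-fat libraries than on chow, as were the 3 lower genes, which were chosen for that. Their sum over 11 measured markers was 156, 162, 197 and 129.6 CPM on day 2, 116, 84.3, 251 and 118 on day 4, 288, 282, 323 and 184 on day 6 and 391, 347, 182 and 192 on day 14, against 412, 539, 482 and 524 CPM on chow. No high-fat library reached the chow range, and none of the markers was at 0 in a whole group (Krt18 had no read in day 4 replicate 2). The sum includes Krt8 and Krt18, which also mark other epithelia. Chow replicate 4, the library with ductal epithelial markers, held 81.6 and 36.4 CPM of them, against at most 14.3 and 6.63 CPM in the other chow libraries. Its sum is thus not of mesothelium alone. Day 14 replicates 1 and 2, the libraries with the most Cobl of the high-fat diet, had the highest sums of that diet. The number of the 11 markers that were lower than on chow at an adjusted p under 0.05 in edgeR's quasi-likelihood test was 10, 11, 2 and 0 in order of day, beside 1.96%, 17.3%, 1.46% and 0.302% of all genes. At an unadjusted p under 0.05 the counts were 11, 11, 10 and 8, with DESeq2 11, 11, 6 and 3, and with limma-voom 7, 11, 4 and 0. Shares of all genes for these further counts are not given here. With no filter on low counts the day 2 count in edgeR was 5 and that of day 6 was 0, and scaling by library size alone gave 6 on day 6. With 1 library left out in edgeR, all 11 were called lower on day 4 each time. On day 2 the count of 10 was 2 or 4 without chow replicate 2 or 4 and 3 or 0 without day 2 replicate 1 or 4. The day 6 count of 2 was 0 without chow replicate 4 or day 6 replicates 2, 3 or 4, 1 without any day 2 library, day 4 replicates 2 or 4 or day 14 replicates 1 or 2, and 4 without day 6 replicate 1. That of day 14 was 2 without chow replicate 1. Without both chow replicate 4 and day 2 replicate 1 it was 11 on day 4 and 0 on the other days. Mean mesothelial sums were 161, 142, 269 and 278 CPM on days 2, 4, 6 and 14. Csrp2 averaged 17.7, 18.9, 18.4 and 17.8 CPM on those days, and so differed little between high-fat days while the sums did. The part of this cell layer in the levels of Csrp2, Stk26 and Cobl was not tested.

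**Figure D2:**
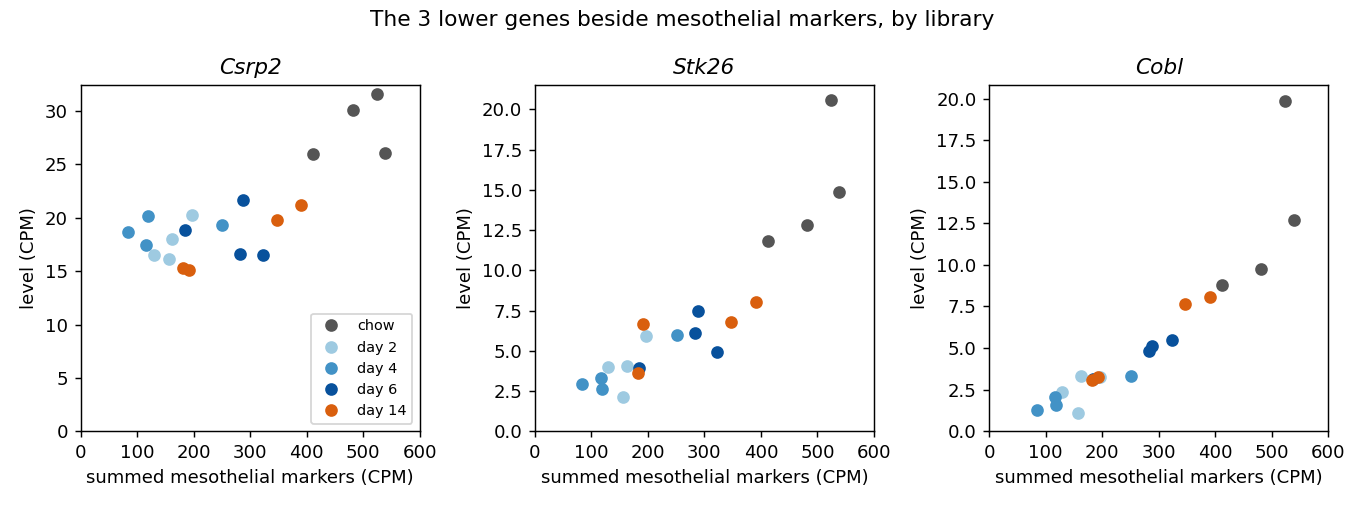
Level of Csrp2, Stk26 and Cobl (vertical axes, CPM) against the summed level of 11 mesothelial markers (horizontal axes, CPM) in each of 20 libraries, coloured by group. Chow libraries lie at 412 to 539 CPM of markers and high-fat libraries at 84.3 to 391 CPM, and the 2 day 14 libraries with 347 and 391 CPM of markers carry 7.64 and 8.08 CPM of Cobl.

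Whether the 9 genes moved between high-fat days was tested in 6 comparisons of days and 1 test of any difference among them. The test was edgeR's quasi-likelihood test with Benjamini-Hochberg adjustment over 15254 genes. The choice of genes did not use these differences as such, but it used the shift of each high-fat day from chow. Genes that crossed chow on any of those days were left out. Counts among the 9 beside the share of all genes are therefore printed without a reading. Cobl was higher on day 14 than on day 4, with a mean of 5.51 ± 2.71 CPM on day 14 and 2.05 ± 0.911 CPM on day 4 (SD, n = 4 each). The log2 difference was 1.52 ± 0.38 (SE; adjusted p = 0.0287), and the groups overlapped, since day 14 replicates 3 and 4 lay below day 4 replicate 3. It was the only one of the 9 called in that comparison, where 9.36% of all genes were called, 4.58% as higher on day 14. Stk26 differed there by 0.84 ± 0.31 on the log2 scale (adjusted p = 0.0891) and Paqr9 by -0.99 ± 0.37 (adjusted p = 0.0909), and neither passed the test. DESeq2 called Cobl (adjusted p = 0.00414) and Paqr9 (adjusted p = 0.0457), and limma-voom called neither (Cobl adjusted p = 0.0680).

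The Cobl call rested on single libraries. The adjusted p was 0.0813, 0.0599 and 0.125 without day 4 replicate 2, 3 or 4, and 0.0776 and 0.103 without day 14 replicate 1 or 2, with log2 differences of 1.29 to 1.76 over all 20 omissions. Leaving out day 14 replicate 3 brought Stk26 (1.01, adjusted p = 0.0414) and Paqr9 (-1.34, adjusted p = 0.0361) under the threshold. Summed mesothelial markers were 391, 347, 182 and 192 CPM in the day 14 libraries and 116, 84.3, 251 and 118 CPM in the day 4 libraries, in order of replicate, and their part in the difference of Cobl was not tested.

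No other comparison between high-fat days called any of the 9. On day 4 against day 2, 2.4% of all genes were called, none of the 9 was, and 0 of them reached an unadjusted p of 0.05. In the remaining 4 comparisons 0% of all genes were called. At an unadjusted p under 0.05 there were 4 of the 9 on day 6 against day 4 (Rhbdf1, Stk26, Cobl and Paqr9), 2 on day 14 against day 6 (Slc6a13 and Hr), 3 on day 14 against day 2 (Slc6a13, Cobl and Hr) and 1 on day 6 against day 2 (Rhbdf1). DESeq2 and limma-voom called 0 of the 9 in each of these 5 comparisons. The test of any difference among the 4 high-fat days called 0% of all genes and 0 of the 9, with 2 of them (Cobl and Paqr9) at an unadjusted p under 0.05. For Cobl the adjusted p there was 0.0850, and DESeq2 called it (adjusted p = 0.0115) while limma-voom called none. The share of all genes at an unadjusted p under 0.05 is not given here. The unadjusted counts are therefore printed without a reading.

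The values behind these counts ran in different directions. On day 6 against day 4, Cobl differed by 1.21 ± 0.38 (SE; adjusted p = 0.240) and Stk26 by 0.66 ± 0.30 on the log2 scale. In the same comparison Paqr9 differed by -0.92 ± 0.36 (adjusted p = 0.258) and Rhbdf1 by -0.23 ± 0.09. Thus the 2 actin- and kinase-related genes that were low on day 4 had values nearer to chow on day 6, and so had Paqr9, which was high on day 4. Without day 4 replicate 1, day 6 replicate 4, chow replicate 4 and day 2 replicate 1 together, Cobl was called there (1.43, adjusted p = 0.0264). Hr differed by 0.79 ± 0.31 on day 14 against day 6 (adjusted p = 1.000). Krt79, D430019H16Rik and Csrp2 had no between-day difference past an unadjusted p of 0.05, with log2 differences between -0.41 and 0.23. A p that misses the threshold does not show that levels were equal.

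**Figure D3:**
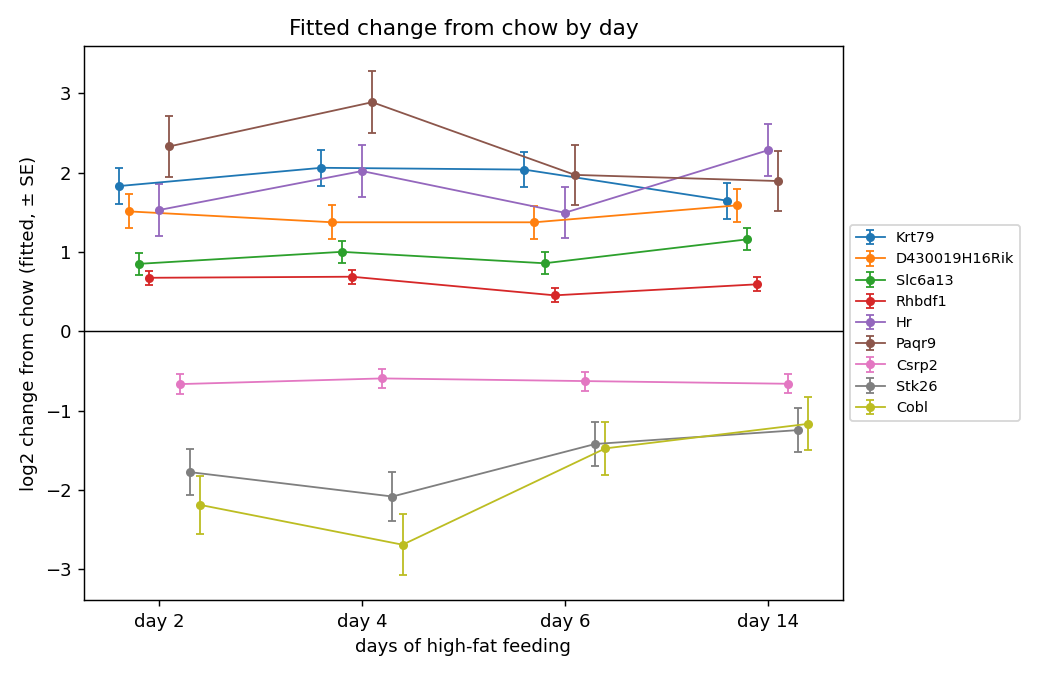
Fitted log2 change from chow of each of the 9 genes (vertical axis) on days 2, 4, 6 and 14 of high-fat feeding (horizontal axis); bars are SE from 1 fit of 20 libraries. Paqr9 reaches 2.89 on day 4 and 1.9 on day 14, Cobl -2.69 on day 4 and -1.17 on day 14, while Csrp2 stays between -0.66 and -0.59.

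The spread between replicate libraries differed widely between the genes. The biological coefficient of variation fitted by edgeR was 0.357 for Paqr9 and 0.308 for Hr, against 0.148 and 0.149 for genes of the same abundance. It was 0.0944 for Rhbdf1 and 0.121 for Csrp2, against 0.147 and 0.171 for such genes. For Cobl it was 0.326 (trend 0.275), for Stk26 0.265 (0.252), for Krt79 0.209 (0.198), for D430019H16Rik 0.206 (0.148) and for Slc6a13 0.143 (0.150). Paqr9 and Hr were thus about as abundant as Rhbdf1 and D430019H16Rik in CPM but varied more between libraries of 1 group. In CPM the coefficient of variation of Hr was 46.4% on day 6 and 51.9% on day 14, where counting error alone gives 2.38% and 2.70%. That of Cobl was 41.9% on day 2, where counting error alone gives 38.0%. In the 16 high-fat libraries the highest value was 7.48 times the lowest for Cobl, 5.40 times for Hr and 1.39 times for Rhbdf1. None of the 45 sets of 4 libraries (9 genes in 5 groups) held a value that Dixon's test at the 95% level marks as an outlier.

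Within groups, pairs of the 9 genes varied together to different degrees. After the mean of each group was subtracted from log2 CPM, Stk26 and Cobl had a Pearson r of 0.84 and a Spearman rho of 0.83 over 20 libraries, the highest of 36 pairs. It was 0.77 without the 2 libraries farthest from the median and 0.82 in the 16 high-fat libraries. Among the higher genes, D430019H16Rik and Paqr9 had an r of 0.61 (rho 0.60) and Slc6a13 and Rhbdf1 an r of 0.59. Krt79 and Csrp2 had the most negative r, -0.65. Hr stood aside, with r between -0.18 and 0.39 with each of the other 8. These are descriptions of the same libraries, which share depth and tissue makeup, and were not tested.

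**Figure D4:**
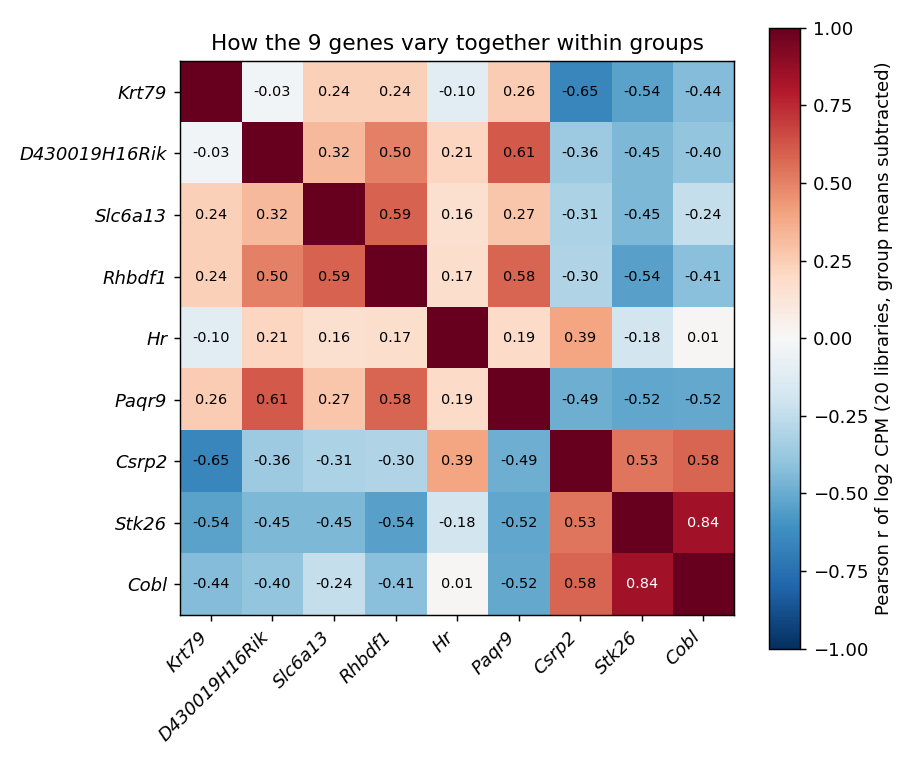
Pearson r of log2 CPM for each pair of the 9 genes over 20 libraries after subtracting group means; red is positive and blue negative. Csrp2, Stk26 and Cobl form a positive block (0.53 to 0.84) and are negative with Krt79, D430019H16Rik, Slc6a13, Rhbdf1 and Paqr9 (-0.65 to -0.24).

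For each gene the most similar patterns were sought among 12702 other measured genes with a symbol and a mean of at least 1 CPM, by Pearson r of log2 CPM over 20 libraries, all of which share the difference between the diets. Paqr9 was most like Ehbp1l1 (r = 0.97) and Rbm28 (r = 0.96). Rhbdf1 was most like Trarg1 (r = 0.93), Rbm28 (r = 0.93) and Tbc1d10b (r = 0.93), of which Trarg1 encodes a protein of the GLUT4 trafficking route in adipocytes. Krt79 was most like Ehd2 (r = 0.92), Upf1 (r = 0.89) and Fads3 (r = 0.89), and Slc6a13 was most like Fads3 (r = 0.91), Mpp7 (r = 0.91) and Iffo2 (r = 0.90). Ehd2 encodes a membrane-remodelling ATPase of caveolae, and Fads3 belongs to the fatty acid desaturase family. D430019H16Rik was most like Tbl2 (r = 0.92), Syt12 (r = 0.92) and Trim67 (r = 0.91), and Hr was most like Trim67 (r = 0.88), Trp53inp2 (r = 0.87) and Fam20c (r = 0.87). Csrp2 was most like Eml6 (r = 0.89), Itpr3 (r = 0.87) and Slc9a3r1 (r = 0.86). Stk26 was most like Cobl (r = 0.95), Tfcp2l1 (r = 0.95) and Bicd1 (r = 0.94), and Cobl was most like Stk26 (r = 0.95), Il17re (r = 0.94) and Bicd1 (r = 0.94). The 2 lower genes Stk26 and Cobl were thus each other's nearest gene and shared Bicd1, a dynein adaptor gene.

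With group means subtracted, so that the difference between diets no longer enters, the nearest genes changed. They were Gypc (r = 0.94) for Paqr9, Wdr82 (r = 0.93) for D430019H16Rik, Smg9 (r = 0.90) for Rhbdf1, Wasf3 (r = 0.90) for Cobl, Hoxb3os (r = 0.88) for Stk26, Rasl12 (r = 0.86) for Hr, Chd3 (r = 0.83) for Csrp2, Bcl2l13 (r = 0.78) for Krt79 and Rps6 (r = 0.73) for Slc6a13. Syt12, a synaptotagmin gene, was in both sets of nearest genes for D430019H16Rik, as were Itpr3, an IP3 receptor gene, for Csrp2 and Tfcp2l1, a transcription factor gene, for Stk26.

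The relatives of the 9 genes were compared with chow in the same fit, without the 9 themselves. In all 120 such genes were measured. On day 4, 31 of them rose and 28 fell at an adjusted p under 0.05, 49.2% in all beside 35.3% of all genes tested (18% rose and 17.3% fell). On day 2, 5 were called higher and 5 lower, beside 4.39% of all genes (2.43% higher and 1.96% lower). On day 6, 6 were called higher and 5 lower, beside 3.45% (1.99% and 1.46%), and on day 14, 2 higher and 1 lower, beside 1.18% (0.878% and 0.302%). The day 4 count of 59 was 40 to 63 with 1 library left out. The counts on the other days rested on single libraries, and the relatives are therefore described on day 4.

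On day 2 the count of 10 was 24, 0 and 1 when chow replicate 1, 2 or 4 was left out, and 0, 25, 6 and 0 without day 2 replicates 1 to 4. On day 6 the count of 11 was 20, 7, 7 and 1 without chow replicates 1 to 4, and 17, 1, 1 and 1 without day 6 replicates 1 to 4. It was 5, 6 and 5 without day 4 replicates 2 to 4, 5 and 7 without day 2 replicates 1 and 3, and 7 and 5 without day 14 replicates 1 and 2. On day 14 the count of 3 was 12 or 1 when chow replicate 1 or 4 was left out, 5 without day 2 replicate 4, 6 without day 4 replicate 1 and 0 without day 14 replicate 3. Without both chow replicate 4 and day 2 replicate 1 the counts were 0, 1 and 0 on days 2, 6 and 14.

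Among keratins other than Krt79, falls were found and no rises. Of 21 listed genes 7 were measured. On day 4 Krt7, Krt8, Krt18, Krt19 and Krt80 fell while 0 rose (4 or 5 fell with 1 library left out). Among all genes 17.3% fell and 18% rose, and the median log2 change was -1.46 for the list and -0.02 for all genes. Krt19 averaged 9.84 ± 4.85 CPM on day 4 and 35.1 ± 7.88 CPM on chow (SD, n = 4 each), a log2 change of -1.88 ± 0.32 (SE; adjusted p = 0.00114). Krt18 and Krt8, the keratin pair of simple epithelia, changed by -3.59 ± 0.73 and -3.04 ± 0.67, but chow replicate 4 held 36.4 CPM of Krt18 and 81.6 CPM of Krt8, against at most 6.63 and 14.3 CPM in the other chow libraries. Without that library and day 2 replicate 1 the changes were -2.30 (adjusted p = 0.00857) and -1.58 (adjusted p = 0.0116). Krt8, Krt18 and Krt19 are also members of the mesothelial list above. Krt10 and Krt14, keratins of the epidermis, were not called.

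Among 11 measured genes of GABA, taurine and creatine transport and GABA breakdown (16 listed), 1 rose and 3 fell on day 4. The shares of all genes were 18% and 17.3%, and the median log2 change of the list was -0.03. Gamt, the last enzyme of creatine synthesis, averaged 63.9 ± 14.9 CPM on day 4 and 29.4 ± 8.42 CPM on chow (SD, n = 4 each), a log2 change of 1.11 ± 0.22 (SE; adjusted p = 0.00189). Abat, which breaks down GABA, fell by 1.23 ± 0.35 (adjusted p = 0.0122), and Slc6a12, a betaine and GABA transporter near 1 CPM, had a log2 change of -1.08 ± 0.40 (adjusted p = 0.0414). The creatine transporter gene Slc6a8 was the third fall, with a log2 change of -0.85. The 3 falls were 1 without chow replicate 4 and 0 without day 4 replicate 4, and also 0 without both chow replicate 4 and day 2 replicate 1, where Abat had an adjusted p of 0.0574. Slc6a12 lost its call in 6 of the 20 fits that left out 1 library (without chow replicate 2 or 3 or any day 4 library).

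In the list of iRhom, ADAM17 and EGF receptor ligands (15 of 18 measured), 4 rose and 4 fell on day 4. Its median log2 change was -0.21, and 18% of all genes rose and 17.3% fell. Listed genes that rose included Adam17 itself and Frmd8, a partner of the iRhoms, with log2 changes of 0.30 and 0.49, and Hbegf, an EGF receptor ligand shed by ADAM17 (1.31). The ligands Btc, Tgfa and Egf fell. Btc averaged 3.08 ± 1.33 CPM on day 4 and 12.97 ± 2.49 CPM on chow (SD, n = 4 each), a log2 change of -2.05 ± 0.42 (SE; adjusted p = 0.00203). Tgfa changed by -1.67 ± 0.38 and the receptor gene Erbb3 by -2.64 ± 0.62, with 10.97 and 28.2 CPM in chow replicate 4, against at most 4.43 and 3.37 CPM in the other chow libraries. Without that library and day 2 replicate 1 they changed by -1.06 (adjusted p = 0.0155) and -1.07 (adjusted p = 0.0117), and the list then held 2 rises and 3 falls.

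Of the LIM domain relatives of Csrp2 and their muscle partners, more rose than fell. On day 4, 9 of 19 measured genes rose and 1 fell, beside 18% and 17.3% of all genes, with a median log2 change of 0.40. Lmo4, a LIM-only adaptor of transcription factors, averaged 168 ± 11.7 CPM on day 4 and 101 ± 13.4 CPM on chow (SD, n = 4 each), a log2 change of 0.73 ± 0.13 (SE; adjusted p = 0.00119). Pdlim5, which links kinases to the actin cytoskeleton, changed by 0.59 ± 0.12 (adjusted p = 0.00201). Csrp1, another gene of the Csrp family, changed by 0.45 ± 0.15 (adjusted p = 0.0309), a call that was lost without any 1 of the chow libraries or of day 4 replicates 2 to 4 (adjusted p up to 0.0979). It had 101, 192, 182 and 178 CPM on day 4, against 113, 119.96, 123 and 122 CPM on chow. Summed markers of smooth muscle and pericytes were 623, 1245, 1383 and 1193 CPM in the same day 4 libraries, against 748 to 819 CPM on chow, and their part in the rises was not tested. The number of rises was 4 and 5 without chow replicate 3 or 4, 3, 4 and 4 without day 4 replicates 2 to 4, 5 without chow replicate 4 and day 2 replicate 1, and 4 with scaling by library size alone.

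In the GCKIII kinase and STRIPAK list of Stk26, 5 of 19 measured genes rose and 1 fell on day 4. Beside this, 18% of all genes rose and 17.3% fell, and the median log2 change of the list was 0.12. The rises in the list were small. Ppp2r1a, the scaffold subunit of the phosphatase PP2A, averaged 285 ± 17.2 CPM on day 4 and 214 ± 27.6 CPM on chow (SD, n = 4 each), a log2 change of 0.41 ± 0.10 (SE; adjusted p = 0.00576), and the striatin gene Strn3 changed by 0.38 ± 0.09 (adjusted p = 0.00500). Strip2, a core STRIPAK component, was the fall, by 1.47 ± 0.28 (adjusted p = 0.00159), with 8.71, 10.3, 8.88 and 7.65 CPM on day 4, against 18.7, 28.1, 29.7 and 20.5 CPM on chow. The groups did not overlap, which held for 15% of all genes in that direction. Library size scaling alone gave 2 rises and 2 falls, as did the fit without the 4 libraries that stood apart, and there were 3 rises without chow replicate 2, 3 or 4 and 2 falls without day 4 replicate 1.

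Of 19 measured actin nucleators and partners of Cobl, 6 rose and 3 fell on day 4, beside 18% and 17.3% of all genes. Their median log2 change was 0.08, but 2 rose and 6 fell with scaling by library size alone. The formin gene Fmnl2 averaged 18.6 ± 2.40 CPM on day 4 and 28.02 ± 2.83 CPM on chow (SD, n = 4 each) and fell by 0.59 ± 0.13 on the log2 scale (SE; adjusted p = 0.00298). Spire2, an actin nucleator like Cobl, changed by -2.72 ± 0.60 (adjusted p = 0.00310) at a low level, with 0.191, 0, 0.444 and 0.0654 CPM on day 4, against 0.582, 1.16, 1.01 and 1.40 CPM on chow. Cobll1, the closest relative of Cobl, was also among the falls, with a log2 change of -0.57. The rises numbered 3 in each fit that left out 1 of chow replicates 2 to 4, day 4 replicates 2 to 4 or day 14 replicates 1 and 2.

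Partners of Hairless and genes of the thyroid hormone response had more falls than rises on day 4. Among 19 measured genes there were 3 rises and 8 falls, beside 18% and 17.3% of all genes. Their median log2 change was -0.39, and there were 2 rises and 10 falls when only library size was used for scaling. Dio2, the enzyme that activates thyroid hormone, had 9.28, 6.72, 6.88 and 13.5 CPM on day 4, against 0.640, 0, 0.405 and 0.530 CPM on chow. The groups did not overlap, which held for 15.2% of all genes in that direction, and the log2 change was 4.38 ± 0.78 (SE; adjusted p = 0.00125). Kdm3a, a histone demethylase with a JmjC domain as Hairless has, changed by -0.80 ± 0.13 (adjusted p = 0.000977). Klf9, Rora and Thra were among the other falls (-0.85, -0.42 and -0.39).

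The receptor family of Paqr9 was split on day 4, with 3 rises and 3 falls among 11 measured genes. Rises made up 18% and falls 17.3% of all genes, and the median log2 change of the family was -0.17. Paqr7, a membrane progestin receptor, averaged 48.3 ± 8.72 CPM on day 4 and 21.4 ± 5.35 CPM on chow (SD, n = 4 each), a log2 change of 1.17 ± 0.19 (SE; adjusted p = 0.000977). Paqr4 changed by 0.61 ± 0.12 (adjusted p = 0.00159) and Mmd by 0.93 ± 0.19 (adjusted p = 0.00236). Mmd2, Paqr6 and Pgrmc1 were lower, with log2 changes of -3.30, -0.91 and -0.55, and the adiponectin receptor genes Adipor1 and Adipor2 were not called. The 3 rises were there with each 1 of the 20 libraries left out, while the falls numbered 1 without day 4 replicate 2 or 3.

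**Figure D5:**
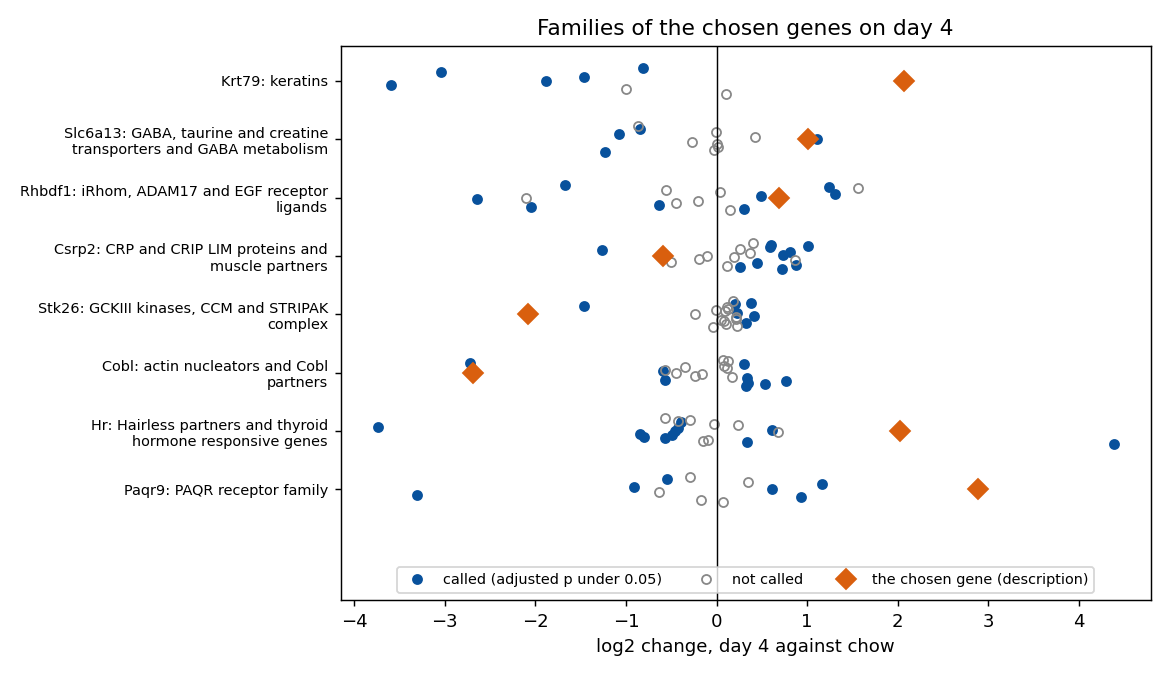
Log2 change on day 4 against chow (horizontal axis) of the measured relatives of 8 of the 9 genes, by list; filled points passed the test (adjusted p under 0.05), open points did not, and diamonds are the chosen genes, which were not tested. Keratins that passed lie below 0 while Krt79 lies at 2.06, and LIM relatives lie mostly above 0 while Csrp2 lies at -0.59.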

How the data were processed

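Total RNA of epididymal fat was made into TruSeq libraries, per the labels. The authors deposited raw read counts by Ensembl gene ID. CASAVA, STAR and featureCounts, with limma and R 3.0, are named without roles in the submitters' processing notes. Genome build, annotation and strand setting are not given in the sources used here. Symbols were found for 37607 of 39179 IDs, and IDs without one held 0.139% of counts.

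Genes were filtered with filterByExpr (minimum count 10, minimum total 15), scaled by TMM and fitted in edgeR 4.0.16 (R 4.3.3) with the group as the only term, 15 residual degrees of freedom and robust quasi-likelihood F tests. Benjamini-Hochberg adjustment was made over all 15254 genes tested in each comparison, and calls are at an adjusted p under 0.05. SEs were derived from the F statistic. Log2 CPM used a prior count of 2. Replicates differed in depth, so the shallow libraries carry more counting error. P-values measure the spread between these libraries, which the labels call biological replicates. No 2 libraries held identical counts. Exon lengths were taken from GENCODE and promoters from RefSeq, both on GRCm38.

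The 9 genes, the 8 lists of relatives and the marker lists were chosen with earlier results of these data known. From each list of relatives the text names up to 3 genes with the smallest p in the test of any difference among the 5 groups. Other list members in the text were named after their values were seen. Similar genes were taken by rule as the 3 with the highest r. A few genes that these rules name are not reported here. Alternatives were DESeq2 size factors, library size only, no filter, a stricter filter, DESeq2 1.42.0, limma-voom (limma 3.58.1), the replicate number as a block, and leaving out libraries. The steps were tested on simulated counts.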

Additional observations from a re-analysis of the deposited data

Results flagged for a closer look

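The difference of Cobl between 2 high-fat days was past the threshold of its test, and so its change from chow differed between those days. The log2 difference of day 14 against day 4 was 1.52 ± 0.38 (SE; adjusted p = 0.0287 in edgeR's quasi-likelihood test), with a mean of 5.51 CPM on day 14 and 2.05 CPM on day 4. Day 14 was higher in 2 of its 4 libraries than in every day 4 library, and over all alternatives the adjusted p ranged from 0.00414 to 0.125.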

How the results depend on the processing

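All 9 genes kept apart from chow, with no overlap between high-fat and chow libraries, in each setting run, and no change from chow changed sign. The genes were chosen by these contrasts, and leaving out libraries could hardly bring an overlap, so this is a description only. Of 54 differences between high-fat days, 12 changed sign in at least 1 setting. None of the 12 was called, and the largest, Hr on day 14 against day 4, was 0.26 and became -0.15 without day 14 replicate 1. Between days, the count of the 9 genes called on day 14 against day 4 (1) was 2 with DESeq2, 0 with limma-voom, 2 with the replicate block and 0 to 3 with 1 library left out. The test of any difference (0) gave 1 with DESeq2, 1 without the 4 libraries that stood apart and 0 to 1 with 1 library left out, and day 6 against day 4 (0) gave 1 without those 4. The cause was not tested. Among relatives, the day 2 count of 10 was 5 without a filter, 23 with DESeq2, 0 without chow replicate 4 and day 2 replicate 1, 0 without all 4 and 0 to 25 with 1 library left out. The day 6 count of 11 was 4, 17, 1, 1 and 1 to 20 in the same settings. The day 14 count of 3 was 11 with DESeq2, 0 and 1 without the 2 or the 4 libraries, and 0 to 12 with 1 left out. Libraries were treated as unpaired, because the labels tie no replicate number to a shared source and the correlation of deviations between same-numbered libraries was -0.19 to 0.52 (median 0.04), not over 0.1 in every pair. As a hint from the data alone, 10 of 20 libraries were most like one of their own number. With the replicate block Cobl on day 14 against day 4 was 1.5 (adjusted p = 0.0354) and Paqr9 -1.03 (adjusted p = 0.0421). Depth limits Cobl and Stk26, which had as few as 2 and 4 reads in a library.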
